A study of Homo sapiens with 30 samples.

Results

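The type I interferon response genes are a set of 37 genes chosen by name as known targets or factors of the interferon response. The rule uses no expression value, but the genes were chosen with earlier results of these data known. Each was read from the brightest probe set that carries its symbol alone, meaning the highest mean over the 30 arrays. A probe set was found for 36 of the 37 among 19775 genes with such a probe set, and STAT2 was not analysed here. Of the 36, 24 passed a brightness filter that 13137 genes passed, namely a log2 level above 5.013 (the median of all deposited values) on 3 or more arrays. The other 12 stayed dim, below that level, in all 10 lines and on all 30 arrays.

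The arrays profile KMS11, an established human myeloma line that carries the chromosome translocation placing the histone methyltransferase gene NSD2 under immunoglobulin enhancers. The question behind the comparisons is which expression changes depend on NSD2, on its catalytic activity and on its parts. Biological triplicates of cultures were taken from each of 10 lines: the parental line (PAR), the NSD2 knockout (TKO) and 8 reconstituted lines that carry an NSD2 transgene. Nothing in the sources used here names several clones of a line, so the 3 arrays of a line measure the spread between its cultures and not between clones. WT carries wild-type NSD2, and CDM carries the catalytic dead mutant. The MMSET1 line has the short NSD2 isoform MMSET I, which ends before the catalytic SET domain. In WT+MMSET1 and CDM+MMSET1 that isoform was added to the wild-type and to the dead full-length protein. H762Y carries the protein with that substitution, in a PHD finger, and 526-1240 and 526-1365 carry fragments of residues 526 to 1240 and 526 to 1365, both with the SET domain. No line was labelled as treated with interferon.

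Type I interferons bind a receptor pair on the cell surface, which activates a kinase cascade and a transcription factor that contains IRF9. That factor binds the interferon-stimulated response element (ISRE) near the start of its target genes. The products sense viral RNA, tag proteins with the ubiquitin-like protein ISG15, block virus entry or degrade RNA, and many of them are also expressed at some level without added interferon.

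The promoters of 6 of the genes are shown because they hold the core of the element through which interferon acts, 4 from genes that were measurable and differed between lines and 2 from genes that were dim in every line. Each is the stretch of 120 bases before the start of the gene in RefSeq, build GRCh38.p14, written 5′ to 3′ on the gene's own strand, with capitals marking the ISRE core on either strand (GAAA, 2 bases of any kind, then GAAA again). ISG15 lies at chr1:1013377-1013496, plus strand, with 2 overlapping matches. IFI44 lies at chr1:78649669-78649788, plus strand, with 1 match. HERC5 lies at chr4:88456999-88457118, plus strand, with 2 matches, and ISG20 at chr15:88638896-88639015, plus strand, with 1 match. The dim IFIT1 lies at chr10:89392503-89392622, plus strand, and the dim DDX60 at chr4:168318753-168318872, minus strand, with 2 matches each.
ISG15: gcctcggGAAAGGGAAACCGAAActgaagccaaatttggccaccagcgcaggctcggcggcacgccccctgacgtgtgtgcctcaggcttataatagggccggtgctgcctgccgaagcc
IFI44: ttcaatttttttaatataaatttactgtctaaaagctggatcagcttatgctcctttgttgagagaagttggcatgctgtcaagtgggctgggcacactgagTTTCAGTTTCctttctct
HERC5: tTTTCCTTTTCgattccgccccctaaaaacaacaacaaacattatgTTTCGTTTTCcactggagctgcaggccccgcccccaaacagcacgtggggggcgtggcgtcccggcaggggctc
ISG20: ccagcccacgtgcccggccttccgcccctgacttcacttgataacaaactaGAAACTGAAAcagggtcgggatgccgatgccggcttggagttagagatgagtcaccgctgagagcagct
IFIT1: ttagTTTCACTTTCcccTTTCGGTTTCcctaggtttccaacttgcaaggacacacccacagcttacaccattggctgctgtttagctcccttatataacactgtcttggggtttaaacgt
DDX60: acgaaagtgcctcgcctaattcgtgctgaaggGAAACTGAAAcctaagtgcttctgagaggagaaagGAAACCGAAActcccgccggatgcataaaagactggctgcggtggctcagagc

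Over a window of 250 bases before to 50 after each start, the ISRE core was found for 21 of the 29 listed genes that the promoter table holds (72.4%), against 4.38% of all 27305 genes in it. It was found for 16 of the 20 tested genes and for 5 of the 8 dim genes in that table. A gene counted if any of its starts had a match, and the 29 genes had 39 starts. The promoters of IRF1, IRF9, IFI35, OAS1, HERC6, XAF1, CMPK2 and STAT2 held no match in this window. The GAS core TTCNNNGAA, the element of the interferon gamma response, was found for 10 of the 29 (34.5%), against 9.38% of all genes. A match is a description of these letters and not a measured binding site.

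H762Y replicate 1 stood furthest from its line: it correlated with the other arrays of the line at 0.958 and 0.961, where those correlated at 0.998 with each other. Its closest array of another line was WT+MMSET1 replicate 1 (0.981), so the comparisons of H762Y are given with and without it. PAR replicate 1 correlated with the other PAR arrays at 0.970 and 0.983, where those correlated at 0.992, and the calls in PAR that end without it are named with each comparison. Of the 30 arrays, 15 correlated more closely with an array of another line than with any of their own. Array medians lay between 4.99 and 5.04. NSD2 still gave a signal in TKO on all 6 of its probe sets. In PAR against TKO 3 of the 6 were higher past the test, by 0.98 at most (adjusted p = 0.00208). The sources used here do not say which exons the knockout removes. These probe sets therefore cannot check the label or show whether TKO kept a working copy of NSD2. All 9 plasma cell markers passed the brightness filter, against 1 of 4 T cell markers and 0 of the 3 monocyte and macrophage markers with a probe set. Of the other marker lists, 3 of 4 epithelial markers passed, 2 of the 2 erythroid markers with a probe set, 2 of 4 fibroblast markers and 2 of 3 markers of plasmacytoid dendritic cells, which produce interferon. EPCAM, an epithelial adhesion protein, had line means from 6.71 to 9.56 and the globin HBB from 6.83 to 8.09. LILRA4 (5.37 to 5.91) and IL3RA (5.54 to 6.08) of the plasmacytoid list lay above the limit on all 30 arrays and CLEC4C below it on all 30. The part of such signals in the results was not tested. In bulk RNA of this kind, a change in the share of cells that express a gene and a change in RNA per cell cannot be told apart.

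The 12 genes that stayed dim were IFIT1, IFIT2, IFI27, IFI44L, OAS2, RSAD2, USP18, HERC6, DDX60, XAF1, TRIM22 and CMPK2. They include classical strongly induced genes, such as IFIT1, which binds viral RNA, RSAD2, the antiviral enzyme viperin, and USP18, which removes ISG15 from proteins. Their line means spanned little: the range from the lowest to the highest line had a median of 0.247 log2 units over the 12, and 0.398 at most, in USP18. Among the 24 tested genes the same range had a median of 0.894, from 0.206 to 2.18, against 0.542 over all genes tested. The filter bears on this contrast, since a gene could pass it through the lines in which it was high.

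Several genes that were dim lie beside genes of the set that were not, in the RefSeq gene order. The set holds 12 neighbouring pairs, involving 20 of the 37 genes, with at most 1 coding gene between the partners. In 6 of the pairs a dim gene lay beside a tested one, in 5 both were tested, and in 1, CMPK2 and RSAD2, both were dim. HERC6 was dim on every array while its direct neighbour HERC5 passed the filter, and IFI44L was dim beside IFI44. In the IFIT cluster IFIT1 and IFIT2 were dim, and IFIT3 and IFIT5 were tested. In the OAS cluster OAS2 was dim, and OAS1 and OAS3 were tested.

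**Figure D1:**
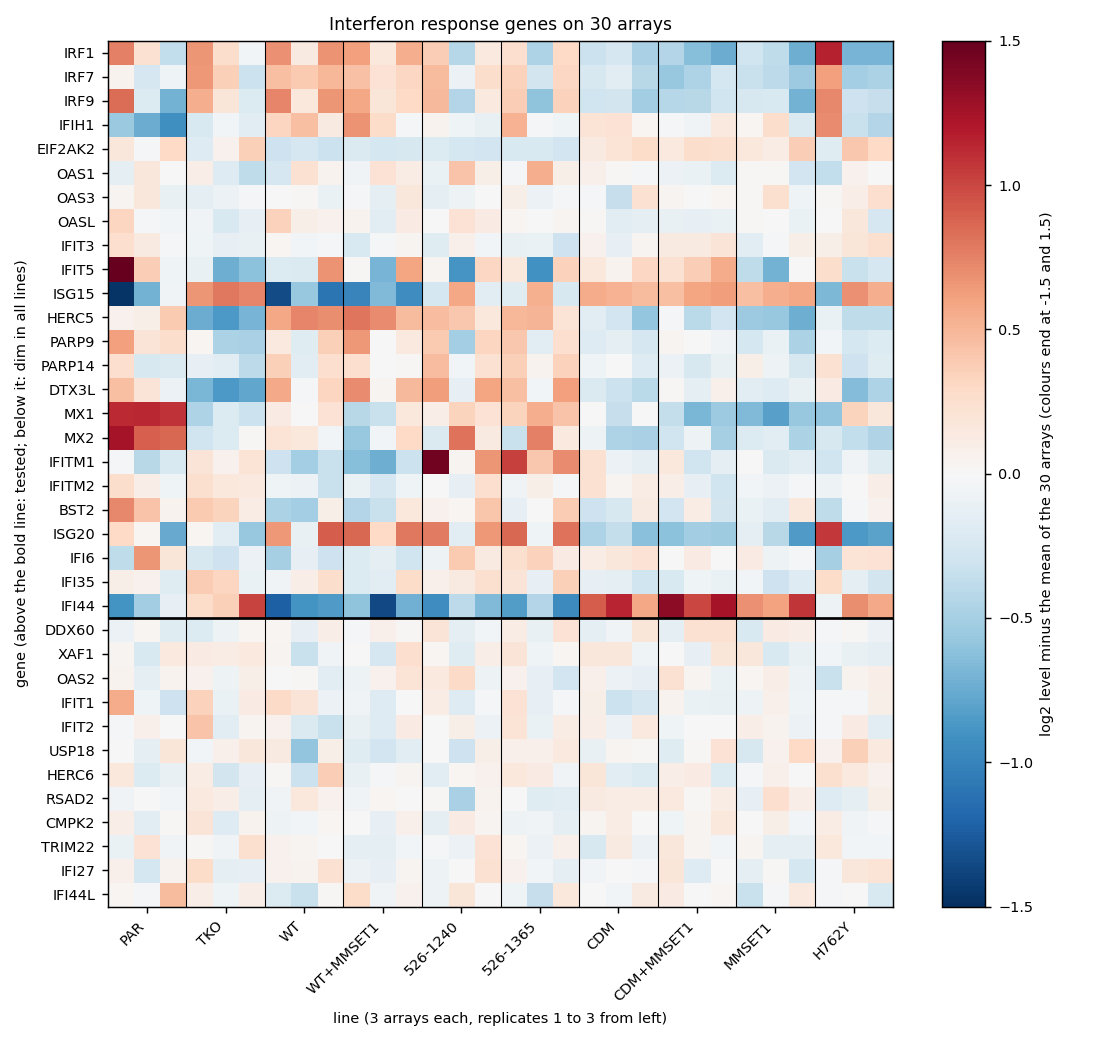
Log2 level of the 36 genes on each of the 30 arrays, relative to the gene's mean over the arrays (rows: genes, columns: arrays in blocks of 3 per line, red above and blue below the mean). IFI44 is blue and HERC5 red on every array of PAR, WT, WT+MMSET1 and the 2 fragment lines, and the other way round in TKO, CDM, CDM+MMSET1 and MMSET1; ISG15 is blue in PAR, WT and WT+MMSET1 and red on replicate 2 of both fragment lines, MX1 and MX2 are red in PAR, and the 12 dim genes below the bold line show little colour.

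Tests were made with limma on all 30 arrays, and a gene was called at an adjusted p under 0.05 over the 13137 genes. All differences are log2 differences of the first line minus the second, with their standard error (SE), and levels are log2 levels as mean ± SD of 3 arrays. The 8 genes with the largest range of line means were IFI44 (2.18), MX1 (1.80), ISG15 (1.73), HERC5 (1.43), MX2 (1.36), IFITM1 (1.28), ISG20 (1.21) and DTX3L (1.19). The lowest line means of IFI44, MX2 and IFITM1 lay below the brightness limit. No line was the highest for most genes: PAR and WT were each the highest for 5 of the 24, and TKO was the lowest for 8 and WT for 6.

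The parental line differed from the knockout in 9 of the 24 genes, 6 higher and 3 lower in PAR, where 22.3% of all genes tested were called (12.2% higher, 10.1% lower). The 2 Mx genes, ISG15 ligase HERC5 and the DTX3L and PARP9 pair were higher in PAR, while ISG15 itself, IFI44 and the RNA sensor IFIH1 were lower. The genes of the set thus moved in both directions in the same cells, and their median difference was 0.12 (all genes tested: -0.03).

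MX1, a dynamin-like GTPase that traps viral nucleocapsids, measured 8.07, 8.09 and 8.04 on the PAR arrays and 6.49, 6.74 and 6.63 on the TKO arrays. The groups did not overlap, as in 36.2% of all genes tested, and the difference of 1.44 ± 0.17 (SE) was 2.72-fold (adjusted p = 4.61e-07). Its neighbour and relative MX2 measured 6.38, 6.03 and 5.99 in PAR and 4.83, 4.93 and 5.15 in TKO, a difference of 1.17 (adjusted p = 0.000799). HERC5, the ligase that joins ISG15 to newly made proteins, measured 8.57, 8.60 and 8.90 in PAR and 7.77, 7.65 and 7.81 in TKO, a difference of 0.95 (adjusted p = 3.69e-06). DTX3L, a ubiquitin ligase that works in a complex with PARP9, was higher by 0.96 (adjusted p = 0.00167), and PARP9 by 0.66 (adjusted p = 0.0223). The PARP9 call was lost without PAR replicate 1 or TKO replicate 2 or 3, at 0.54 to 0.84 over the arrays left out in turn, while those of MX1, MX2, HERC5 and DTX3L held.

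ISG15, the ubiquitin-like modifier, ran the other way from its ligase. It measured 7.35, 8.12 and 8.77 on the PAR arrays and 9.48, 9.62 and 9.55 on the TKO arrays, a difference of -1.47 ± 0.31 (adjusted p = 0.00101). Every PAR array lay below every TKO array, although the PAR arrays spread over more than 1 log2 unit. IFI44 measured 4.28, 4.66 and 5.05 in PAR, near or below the brightness limit, and 5.45, 5.54 and 6.19 in TKO, a difference of -1.06 (adjusted p = 0.00215). IFIT5, an RNA-binding protein, was higher in PAR by 1.15 (adjusted p = 0.0393). That call was lost without PAR replicate 1, TKO replicate 2 or TKO replicate 3, with differences between 0.64 and 1.51 over the arrays left out in turn. IFIH1, the sensor of long double-stranded RNA, was lower (-0.60, adjusted p = 0.0488), and its call was lost whichever of the 6 arrays was left out, at -0.69 to -0.51. A fit blocked on replicate number also called 9, where 19.3% of all genes were.

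Returning wild-type NSD2 to the knockout also gave 9 calls in WT against TKO, 4 higher and 5 lower, where 40.8% of all genes were called (21.5% higher, 19.3% lower). The largest differences had the same sign as in PAR against TKO for HERC5, DTX3L, ISG15 and IFI44. The 2 comparisons share the TKO arrays, so their values are set side by side only. HERC5 measured 9.09, 9.24 and 9.20 in WT, above all TKO and all PAR arrays, and differed from TKO by 1.43 ± 0.13 (adjusted p = 1.05e-08). DTX3L measured 7.64, 7.04 and 7.40 in WT and 6.38, 6.20 and 6.29 in TKO, a difference of 1.06 (adjusted p = 0.000431). ISG15 measured 7.48, 8.25 and 7.73 in WT and differed from TKO by -1.73 ± 0.31, a level 3.32-fold lower (adjusted p = 0.000137). IFI44 measured 3.96, 4.28 and 4.33 in WT, dim on all 3 arrays, and differed by -1.54 (adjusted p = 3.1e-05). Counted from the brightness limit, which is how folds of a gene dim in 1 line are given here, it was at least 1.64-fold lower. For each of these 4 genes the WT and TKO arrays did not overlap, as in 52.2% of all genes tested.

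Smaller calls in WT against TKO were MX1 (0.44, adjusted p = 0.0399) and OASL (0.30, adjusted p = 0.0279) as higher, and BST2 (-0.58, adjusted p = 0.024), EIF2AK2 (-0.37, adjusted p = 0.0205) and IFITM2 (-0.34, adjusted p = 0.0123) as lower. BST2 is tetherin, which holds budding viruses at the membrane, and EIF2AK2 is the RNA-activated kinase PKR. Leaving out WT replicate 1 left 5 calls. The MX1 call was lost without WT replicate 1 or 3 or TKO replicate 1 or 3, and that of OASL without WT replicate 1 or TKO replicate 2 or 3. The EIF2AK2 call was lost without WT replicate 1 or 3 or TKO replicate 3, that of BST2 without WT replicate 1 or 2 or TKO replicate 1 or 2, and that of IFITM2 without WT replicate 3. Over these settings the differences kept their sign, at 0.38 to 0.50 for MX1, 0.21 to 0.35 for OASL, -0.50 to -0.23 for EIF2AK2, -0.77 to -0.47 for BST2 and -0.39 to -0.26 for IFITM2.

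WT and PAR, which both express catalytically active NSD2, were set against each other directly. In WT against PAR 6 of the 24 genes were called, 2 higher and 4 lower, where 30.6% of all genes were called (15.7% higher, 14.9% lower). The Mx genes did not return to the parental level: MX1 was lower in WT by 1.0 log2 unit (-1.0 ± 0.17, adjusted p = 0.000111) and so was MX2 (-0.90, adjusted p = 0.00658), and no WT array reached a PAR array. MX2 in WT (5.33, 5.28 and 5.08) also overlapped TKO, with a WT minus TKO difference of 0.27 (adjusted p = 0.399). IFIH1 measured 8.62, 8.76 and 8.44 in WT against 7.74, 7.56 and 7.38 in PAR, higher by 1.05 (adjusted p = 0.000804), and HERC5 was higher by 0.48 (adjusted p = 0.00601).

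BST2 (-0.70, adjusted p = 0.01) and EIF2AK2 (-0.45, adjusted p = 0.0084) were lower in WT than in PAR. The BST2 call was lost without WT replicate 1 or PAR replicate 1, at -0.89 to -0.54 over the arrays left out, and the EIF2AK2 call without PAR replicate 3, at -0.53 to -0.37. The ISG15 level in WT, 7.82 ± 0.39, differed from that in PAR, 8.08 ± 0.71, by -0.26 (adjusted p = 0.558, 95% confidence interval -0.90 to 0.38), and DTX3L differed by 0.10 (adjusted p = 0.756, interval -0.34 to 0.55).

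The catalytic dead mutant tests whether the protein without methyltransferase activity moves these genes. In CDM against TKO 1 of the 24 genes was called, HERC5, where 17.2% of all genes were called (9.99% higher, 7.18% lower). HERC5 measured 8.34, 8.22 and 7.93 in CDM, higher than in TKO by 0.42 ± 0.13 (adjusted p = 0.0249), where WT minus TKO was 1.43 on the same TKO arrays. ISG15 measured 9.38, 9.34 and 9.29 in CDM and differed from TKO by -0.21 (adjusted p = 0.713, interval -0.85 to 0.43). IFI44 measured 6.09, 6.32 and 5.76, a difference of 0.33 (adjusted p = 0.393, interval -0.17 to 0.84).

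The replicate numbers pair CDM with TKO by the check described in the processing notes, and with the number as a block 9 genes were called, where 31.1% of all genes were. IFIT5, IFI6, HERC5, IFIH1 and DTX3L were then higher, while the regulators IRF1 (-0.65), IRF7 (-0.50) and IRF9 (-0.54) and the induced protein IFI35 (-0.39) were lower. Without the block the HERC5 call was lost when CDM replicate 1 or 2 or TKO replicate 1 or 2 was left out, at 0.33 to 0.54, which left 0 calls each time. Without TKO replicate 3 there were 3 calls, and without H762Y replicate 1, which enters the shared estimate of the spread, there were 2, where 21.9% of all genes were called.

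WT against CDM compares active with catalytic dead full-length NSD2. In it 7 of the 24 genes were called, 3 higher and 4 lower, where 23.4% of all genes were called (12.4% higher, 11% lower). IFI44 (-1.87 ± 0.24, at least 2.06-fold lower, adjusted p = 5.96e-06) and ISG15 (-1.52 ± 0.31, adjusted p = 0.00144) were lower with the active protein, as were EIF2AK2 (-0.50, adjusted p = 0.00685) and IFITM2 (-0.29, adjusted p = 0.0482). HERC5 (1.01 ± 0.13, adjusted p = 3.89e-06), IRF7 (0.71, adjusted p = 0.0334) and DTX3L (0.60, adjusted p = 0.0444) were higher. IRF7 is the factor that amplifies interferon gene transcription. In all 7 genes the 3 WT arrays lay apart from the 3 CDM arrays, as they did in 15 of the 24 genes and in 43.4% of all genes tested.

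ISG20, an RNA exonuclease, and the factors IRF1 and IRF9 lay close to the threshold in WT against CDM. Their differences were 0.96 (adjusted p = 0.075), 0.86 (adjusted p = 0.0819) and 0.88 (adjusted p = 0.0556), and none was called in the fit of all arrays. The ISG15, IFI44, HERC5 and EIF2AK2 calls held whichever array of WT or CDM was left out. Those of IRF7, IFITM2 and DTX3L were lost without WT replicate 1, WT replicate 3 or any CDM array, with differences of 0.64 to 0.77, -0.34 to -0.21 and 0.46 to 0.76 in turn, and each of these settings left 4 calls. Without H762Y replicate 1 in the fit 11 genes were called, where 31.5% of all genes were. Among them were ISG20 (adjusted p = 0.016), IRF1 (adjusted p = 0.0127) and IRF9 (adjusted p = 0.0293) as higher. IFI6 (-0.48, adjusted p = 0.0271) was then called lower.

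WT+MMSET1 against CDM+MMSET1 repeats the comparison on 6 other arrays, beside the short isoform. Again 7 of the 24 were called, 4 higher and 3 lower, where 32.1% of all genes were called (16.1% higher, 16% lower). IFI44 measured 4.57, 3.83 and 4.46 with active NSD2 and 6.51, 6.17 and 6.42 with the dead protein, a difference of -2.09 ± 0.24 (adjusted p = 1.22e-06) and at least 2.56-fold lower, since all 3 WT+MMSET1 arrays were dim. ISG15 measured 7.83, 8.16 and 7.89 against 9.27, 9.41 and 9.44, a difference of -1.42 (adjusted p = 0.00181). The arrays of both genes fell into separate ranges, as in 53% of all genes tested. EIF2AK2 (-0.46, adjusted p = 0.00778) was lower as well.

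The genes higher with the active protein in that comparison were ISG20, IRF1, HERC5 and IRF7. HERC5 measured 9.31, 9.22 and 8.98 against 8.48, 8.10 and 8.22 (0.91, adjusted p = 1.88e-05), and ISG20 measured 9.28, 8.72 and 9.21 against 7.81, 7.90 and 7.88 (1.21, adjusted p = 0.0218). IRF1 (1.05, adjusted p = 0.0273) and IRF7 (0.75, adjusted p = 0.0185) activate interferon genes and their targets. Leaving out WT+MMSET1 replicate 1 or CDM+MMSET1 replicate 2 left 4 calls, ISG15, IFI44, HERC5 and EIF2AK2. The ISG20 call was also lost without WT+MMSET1 replicate 3 or CDM+MMSET1 replicate 1 or 3 (1.10 to 1.38 over all settings), that of IRF1 without WT+MMSET1 replicate 3 or CDM+MMSET1 replicate 3 (0.96 to 1.19), and that of IRF7 without CDM+MMSET1 replicate 1 (0.69 to 0.84).

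The 2 active against dead comparisons share no array, and 5 genes were called in both with the same sign, 71.4% of the 7 called in each. The comparisons are still not independent: WT and WT+MMSET1 arrays of the same number deviated together, with correlations of 0.46, 0.69 and 0.52. They also share 1 estimate of the spread. HERC5 and IRF7 were higher and ISG15, IFI44 and EIF2AK2 lower in both. The sign was the same for 22 of the 24 genes (91.7%), against 80% of all genes tested, and 20.8% of the 24 and 18.3% of all genes were called in both. The test of the difference between the 2 comparisons was fitted without the replicate numbers. It called 0 of the 24 genes (0% of all genes), with 0 at an unadjusted p under 0.05. Those differences ran from -0.32 in IFIT5 to 0.26 in IFITM2, and their 95% confidence intervals reached a median of 0.59 to either side.

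**Figure D2:**
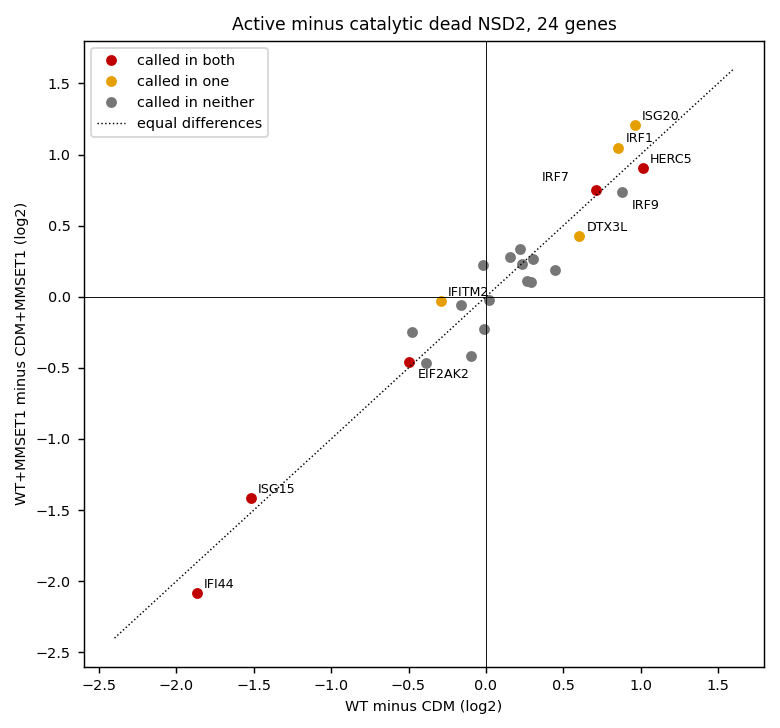
Log2 difference of active minus catalytic dead NSD2 for the 24 tested genes, without MMSET I (x axis, WT minus CDM) and beside it (y axis, WT+MMSET1 minus CDM+MMSET1), coloured by where limma called the gene. IFI44 lies at -1.87 and -2.09 and ISG15 at -1.52 and -1.42, HERC5 at 1.01 and 0.91, and most genes lie near the dotted line of equal differences.

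The 4 lines with active full-length NSD2 or a SET domain fragment were WT, WT+MMSET1, 526-1240 and 526-1365. Their line means were set beside those of the 4 lines with no active transgene (TKO, CDM, CDM+MMSET1 and MMSET1). Every line mean of the first kind lay above every mean of the second for ISG20, MX2, OASL, HERC5, PARP9, PARP14 and DTX3L, and below for ISG15, IFI44 and EIF2AK2. That made 10 of 24 genes (41.7%), close to the 43.3% of all genes tested whose line means separated in this way. For IFI44 the active lines lay between 4.19 and 4.52 and the others between 5.72 and 6.37. For HERC5 they lay between 8.85 and 9.18 against 7.74 to 8.26, and for EIF2AK2 between 8.39 and 8.44 against 8.76 to 8.90. For MX2 and OASL the gap between the 2 kinds of line was under 0.1, at 0.06 and 0.03. IRF7, called in both active against dead comparisons, did not separate: its TKO mean of 7.13 lay above its 526-1365 mean of 7.03. PAR, which also expresses active NSD2, was not among these 4 lines. Counted with them, it left 9 of the 24 genes separated (37.5%), against 27.2% of all genes tested. EIF2AK2 was the gene lost, since its PAR mean of 8.83 lay within the range of the lines without an active transgene. The PAR means of ISG20 (8.28), PARP14 (7.53), HERC5 (8.69), DTX3L (7.25) and IFI44 (4.66) lay between the ranges of the 2 kinds of line, that of PARP14 by less than 0.01 from the inactive range.

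**Figure D3:**
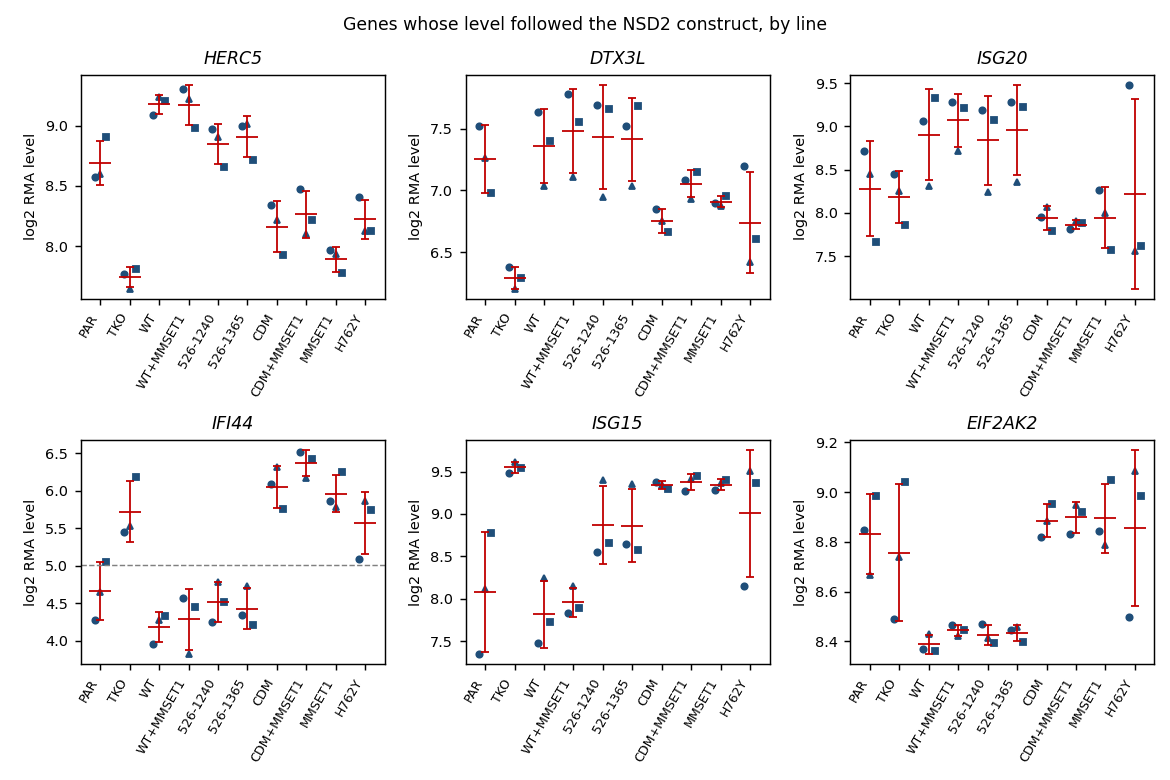
Log2 RMA level of HERC5, DTX3L, ISG20, IFI44, ISG15 and EIF2AK2 on every array of the 10 lines (blue points: replicates 1, 2 and 3 as circle, triangle and square; red bar: mean ± SD of 3 arrays; dashed line: 5.013, the median of all values). WT, WT+MMSET1 and the 2 fragment lines sit above TKO, CDM, CDM+MMSET1 and MMSET1 by line mean in the upper row and below them in the lower row.

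H762Y has its substitution in a PHD finger outside the catalytic domain. In H762Y against WT 4 of the 24 genes were called, 3 higher and 1 lower, where 15.4% of all genes were called (5.98% higher, 9.41% lower). IFI44 measured 5.10, 5.87 and 5.74 in H762Y, higher than in WT by 1.38 ± 0.24 (adjusted p = 0.000345), and HERC5 measured 8.41, 8.13 and 8.13, lower (-0.95 ± 0.13, adjusted p = 1.01e-05). ISG15 measured 8.15, 9.51 and 9.37, higher by 1.19 (adjusted p = 0.0128), and its lowest array lay within the WT range. EIF2AK2 was higher by 0.47 (adjusted p = 0.0135). For IFI44, HERC5 and EIF2AK2 the arrays of the 2 lines did not overlap, as in 18% of all genes tested, and the IFI44 level was at least 1.47-fold higher.

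Without H762Y replicate 1, 10 of the 24 genes were called in H762Y against WT, where 39.2% of all genes were. ISG15 (1.62), IFI44 (1.62), EIF2AK2 (0.65) and IFI6 (0.52) were then higher, and ISG20 (-1.32), IRF1 (-1.20), HERC5 (-1.05), IRF7 (-0.93), DTX3L (-0.85) and IFIH1 (-0.69) lower. ISG20 shows the effect of this array on the line: it measured 9.48, 7.56 and 7.61, so that replicate 1 lay above all WT values and the others below all of them. Without H762Y replicate 2 or 3 there were 2 calls, IFI44 and HERC5, and the ISG15 call was also lost without WT replicate 1 (0.94 to 1.62 over all settings).

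In H762Y against TKO 2 genes were called, HERC5 (0.48, adjusted p = 0.012) and IFIT3 (0.27, adjusted p = 0.0431), both higher, where 15.8% of all genes were called (8.5% higher, 7.26% lower). Without replicate 1, 4 were called, IFIT3 (0.31) and MX1 (0.58) higher and IRF1 (-0.99) and IRF7 (-0.72) lower, where 17.4% of all genes were. The HERC5 call was lost without H762Y replicate 1 or TKO replicate 2 (0.39 to 0.53), and the IFIT3 call without H762Y replicate 2 or 3 or any TKO array (0.23 to 0.31). Leaving out TKO replicate 2 left 0 calls, and leaving out H762Y replicate 2 or 3 or TKO replicate 1 or 3 left 1. ISG15 in H762Y differed from TKO by -0.54 (adjusted p = 0.262), and by -0.11 (adjusted p = 0.837) without replicate 1. IFI44 differed by -0.15 (adjusted p = 0.736), and by 0.08 (adjusted p = 0.863) without it, with the sign turned.

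Both fragments lack the N-terminal part of NSD2. Set against TKO, each gave 7 calls, 5 higher and 2 lower, and the same 7 genes, where 38.6% of all genes were called for 526-1240 (20.9% higher, 17.7% lower) and 37.7% for 526-1365 (20.4% higher, 17.3% lower). DTX3L (1.14 and 1.12), HERC5 (1.11 and 1.17), MX1 (0.55 and 0.77), IFITM1 (0.56 and 0.56) and PARP14 (0.44 and 0.48), an ADP-ribosyl transferase, were higher in 526-1240 and 526-1365 in turn. IFI44 (-1.21 and -1.29) and EIF2AK2 (-0.33 and -0.32) were lower. HERC5 measured 8.97, 8.91 and 8.66 in 526-1240 and 9.0, 9.02 and 8.71 in 526-1365 (adjusted p = 4.09e-07 and 1.85e-07), above all TKO arrays. IFI44 measured 4.25, 4.78 and 4.52 and then 4.34, 4.73 and 4.22 (adjusted p = 0.000413 and 0.000209), below all TKO arrays and dim on all 3 arrays of each fragment, so that the level was at least 1.64-fold lower in both. As the 2 comparisons share the TKO arrays, the shared signs are no independent result.

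The calls of HERC5, DTX3L and IFI44 against TKO held in both fragments whichever array was left out. Leaving out 526-1240 replicate 1 or 3 or TKO replicate 2 or 3 left 4 calls for 526-1240, and leaving out 526-1365 replicate 3 or TKO replicate 3 left 4 for 526-1365. The IFITM1 and EIF2AK2 calls were each lost in 5 of the 7 settings, which leave out 1 of the 6 arrays compared or H762Y replicate 1. For 526-1240, IFITM1 then ran from 0.20 to 0.90 and EIF2AK2 from -0.46 to -0.19, and for 526-1365 from 0.40 to 0.72 and from -0.46 to -0.18. The settings that ended the IFITM1 call left out replicate 1 or 3 of the fragment or any TKO array, and for EIF2AK2 any array of the fragment or TKO replicate 2 or 3. The MX1 call in 526-1240 was lost without TKO replicate 1 (0.48 to 0.61). PARP14 was lost without replicate 1 or 3 of either fragment or TKO replicate 3, and for 526-1240 also without TKO replicate 2, at 0.32 to 0.57 and 0.39 to 0.58 in turn, and with the mean of all its probe sets the 526-1240 value was 0.21 and not called. Centring each array on its median also ended both IFITM1 calls, at 0.55 and 0.54.

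ISG15 in the fragment lines lay between TKO and WT. It measured 8.55, 9.40 and 8.65 in 526-1240 and 8.64, 9.36 and 8.58 in 526-1365, below the TKO arrays by -0.68 (adjusted p = 0.0876) and -0.69 (adjusted p = 0.0844), neither called. In both lines replicate 2 was the highest array. After these values and those of IFITM1 had been seen, the fragments were also set against WT, where 2.18% of all genes were called for 526-1240 (1.07% higher, 1.12% lower) and 1.42% for 526-1365 (0.746% higher, 0.67% lower).

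IFITM1, a membrane protein that blocks virus fusion, was the 1 gene of the 24 called in each fragment against WT. It measured 6.46, 5.06 and 5.68 in 526-1240, 6.05, 5.42 and 5.73 in 526-1365 and 4.71, 4.51 and 4.68 in WT, so that the WT arrays lay below the brightness limit and below every fragment array. The differences were 1.10 ± 0.22 in both (adjusted p = 0.00583 and 0.00821), at least 1.65-fold in each. IFITM1 lay above the limit on 11 of the 30 arrays. The call for 526-1365 was lost without its replicate 1 (0.94 to 1.26 over all settings), and that for 526-1240 held, at 0.74 to 1.44. The ISG15 difference from WT was 1.05 (adjusted p = 0.083) and 1.04 (adjusted p = 0.103).

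The replicate numbers pair both fragments with WT, and with the number as a block ISG15 was called in both (1.05, adjusted p = 0.00182, and 1.04, adjusted p = 0.00728). For 526-1240 the blocked fit called 6 genes, where 9.37% of all genes were called: IFITM1, ISG15, BST2 (0.47) and IFI6 (0.46) higher and IRF1 (-0.47) and IRF9 (-0.45) lower. For 526-1365 it called 2, IFITM1 and ISG15, where 1.9% of all genes were. Without H762Y replicate 1 in the shared fit, ISG15 and IFITM1 were called in both, where 3.59% of all genes were called for 526-1240 and 2.31% for 526-1365.

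The longer fragment was then compared with the shorter. In 526-1365 against 526-1240 limma called 0 of the 24 genes and 0% of all genes, with 0 of the 24 at an unadjusted p under 0.05 and 0 under the replicate block. The differences ran from -0.12 in IFIT3 to 0.22 in MX1, and no 95% confidence interval reached beyond -0.78 or 0.92. The widest of these intervals leave room for differences as large as several called above, and they reached a median of 0.42 to either side.

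**Figure D4:**
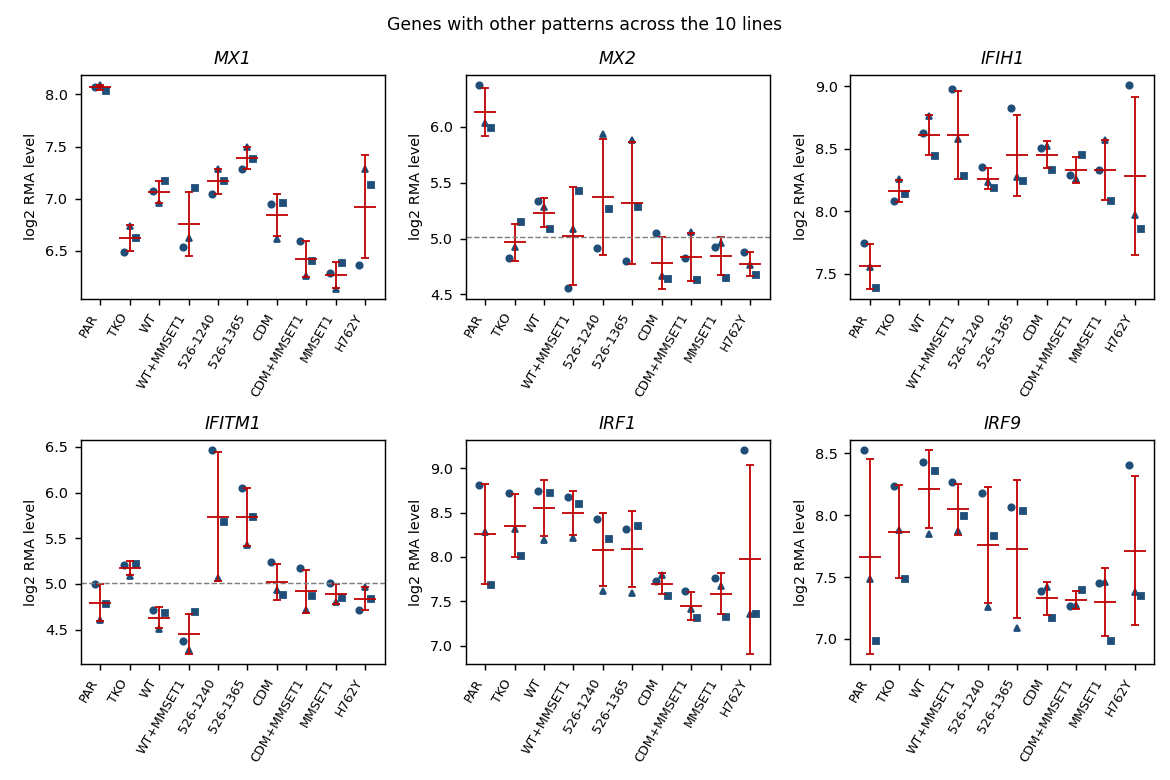
Log2 RMA level of MX1, MX2, IFIH1, IFITM1, IRF1 and IRF9 on every array of the 10 lines (points, bars and dashed line as in the plots of HERC5 and the genes beside it). PAR stands above all other lines for MX1 (8.07 ± 0.03) and MX2, IFITM1 is highest in the 2 fragment lines, and replicate 1 of H762Y lies far above replicates 2 and 3 for IRF1.

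MMSET I was tested alone and beside full-length NSD2. In MMSET1 against TKO 1 of the 24 genes was called, DTX3L, which measured 6.90, 6.87 and 6.96 against 6.38, 6.20 and 6.29 (0.62, adjusted p = 0.0497), where 16.9% of all genes were called (9.29% higher, 7.6% lower). This call was lost whichever of the 6 arrays was left out, at 0.57 to 0.66, and without TKO replicate 3 there were 2 other calls. Without H762Y replicate 1 in the fit there were 4 calls, where 21.1% of all genes were. MMSET1 pairs with TKO by replicate number, and the blocked fit called 5 genes, where 25.4% of all genes were: DTX3L higher, and IRF1 (-0.76), IRF7 (-0.65), IRF9 (-0.57) and IFITM1 (-0.28) lower. HERC5 in MMSET1 differed from TKO by 0.15 (adjusted p = 0.486) and MX1 by -0.35 (adjusted p = 0.171).

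Adding MMSET I to WT gave 0 calls among the 24 (WT+MMSET1 against WT, 0.0152% of all genes called, 0.0152% higher and 0% lower), with 0 at an unadjusted p under 0.05 and 0 under the replicate block. The differences ran from -0.31 in MX1 to 0.17 in ISG20. In CDM+MMSET1 against CDM 0 genes were called as well (0.0457% of all genes, 0.00761% higher and 0.0381% lower). In that comparison MX1 (-0.42, adjusted p = 0.912) and IFITM2 (-0.24, adjusted p = 0.998) were the 2 genes with an unadjusted p under 0.05. Intervals over the 24 genes reached from -0.93 to 0.98 beside WT and from -0.99 to 1.03 beside CDM at their widest, with a median of 0.42 to either side in both.

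**Figure D5:**
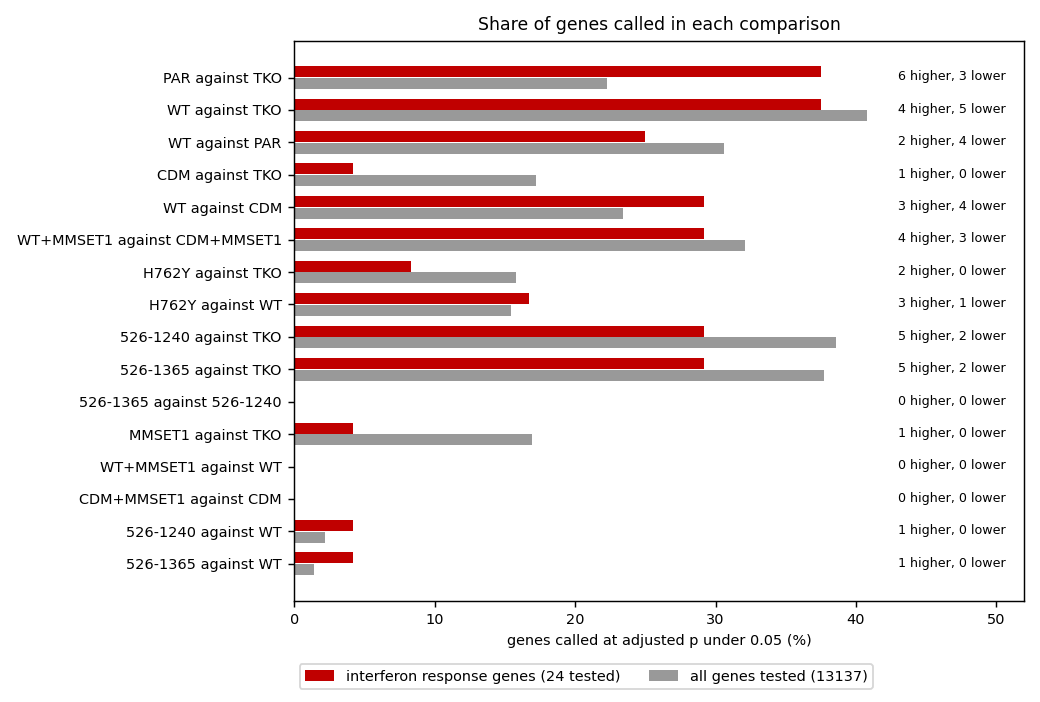
Share of genes called by limma at an adjusted p under 0.05 in each of the 16 comparisons of 2 lines, for the 24 interferon response genes (red bars) and for all 13137 genes tested (grey bars), with the counts called higher and lower at the right. PAR against TKO has the largest excess over the background (37.5% against 22.3%), and CDM and MMSET1 against TKO lie below it (4.17% against 17.2% and 16.9%). These shares come from the fit without a replicate block. With the block, CDM against TKO gave 9 calls among the 24 (31.1% of all genes) and MMSET1 against TKO 5 (25.4% of all genes). With arrays left out in turn, PAR against TKO gave 6 to 9 calls among the 24.

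Over the 16 comparisons, in the fit of all arrays without a replicate block, HERC5 was called in 10. IFI44 and EIF2AK2 were called in 7 each, DTX3L in 6 and ISG15 and MX1 in 5 each. IRF9, IFI6, IFI35, OAS1 and OAS3 were called in none in that fit. Other fits called some of these genes. Under the block, CDM against TKO called IRF9 (adjusted p = 0.0133), IFI6 (adjusted p = 0.0125) and IFI35 (adjusted p = 0.0174). Without H762Y replicate 1, WT against CDM called IRF9 and IFI6. By role, again in the fit of all arrays without the block, OASL was called among the 3 tested oligoadenylate synthetases, in WT against TKO. OAS1 and OAS3 were not. Among the IFIT proteins IFIT3 and IFIT5 were called in 1 comparison each. Within the ISG15 system the modifier and its ligase HERC5 had opposite signs in each comparison that called both: PAR, WT against TKO, WT and WT+MMSET1 against the dead protein, and H762Y against WT.

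The 3 IRF factors of the set varied together between arrays of the same line. After each line mean was subtracted, the deviations on the 30 arrays correlated at 0.908 for IRF1 and IRF9, 0.832 for IRF1 and IRF7 and 0.785 for IRF7 and IRF9, as a description of arrays that share lines and replicate numbers. The spread was wide: IRF1 measured 8.81, 8.28 and 7.69 in PAR and 9.20, 7.36 and 7.36 in H762Y. ISG20 followed them, at 0.967 with IRF1, 0.818 with IRF7 and 0.891 with IRF9, and correlated at 0.848 with PARP14. ISG15 ran against them, at -0.923 with IRF1, -0.655 with IRF7 and -0.908 with IRF9. Such correlations over all genes are not given here. HERC5 and DTX3L correlated at 0.910 over the 10 line means but at -0.07 within lines, so their likeness lay between lines. ISG15 and IFI44 correlated at 0.843 over line means and 0.624 within lines.

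Other genes of the pathway were read from lists, of which ligands and receptors come first. Beside each list stand the shares of all genes tested that were called. They were 22.3% in PAR against TKO, 40.8% in WT against TKO and 23.4% in WT against CDM. IFNA1, IFNA2, IFNB1, IFNE, IFNK and IFNG were dim in all 10 lines. Of the 7 tested ligands and receptors, 0 were higher and 3 lower in PAR against TKO: the type I receptor chains IFNAR2 (-0.79, adjusted p = 2.78e-07) and IFNAR1 (-0.75, adjusted p = 0.0011) and the interferon gamma receptor chain IFNGR2 (-0.31, adjusted p = 0.00679). In WT against TKO IFNGR1 (0.79) was higher and IFNGR2 (-0.40) and the lambda interferon IFNL1 (-0.36) were lower. In WT against CDM IFNGR1 (0.52) was higher and IFNGR2 (-0.32) lower. The IFNAR1 level in WT, 8.73 ± 0.27, differed from TKO by 0.08, which was not called.

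Of the 9 tested kinases and transcription factors, 0 were higher and 4 lower in PAR against TKO, with IRF8 (-0.85, adjusted p = 5.68e-07) and the receptor kinase TYK2 (-0.63, adjusted p = 5.05e-06) at the head. In WT against TKO 2 were higher, JAK2 (0.86) and JAK1 (0.54), and 3 lower, TYK2 (-0.60) and STAT3 (-0.31) among them. In WT against CDM IRF3 (0.77) and the plasma cell factor IRF4 (0.60) were higher and TYK2 (-0.35) and IRF5 (-0.28) lower. Of the 11 tested sensors and adaptors, 3 were lower in PAR against TKO, with the kinase IKBKE (-0.64) and the DNA sensor CGAS (-0.50) foremost. MYD88 (-0.82) and IKBKE (-0.68) were lower and the kinase TBK1 (0.39) higher in WT against TKO, and MYD88 (-0.75) and IKBKE (-0.40) were among 3 lower in WT against CDM.

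Of 8 negative regulators, PTPN2 (0.35) was higher and PTPN6 (-1.02) and TRIM24 (-0.39) lower in PAR against TKO. In WT against TKO PTPN2 (0.33) was higher and PIAS1 (-0.35) lower, and in WT against CDM TRIM24 (-0.48) was lower. Of the 2 tested genes of ISG15 conjugation, the ligase TRIM25 was higher in WT against TKO (0.52) and against CDM (0.75), and 0 were called in PAR against TKO.

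Over all genes tested, 12.2% were called higher and 10.1% lower in PAR against TKO. The shares were 21.5% and 19.3% in WT against TKO, and 12.4% and 11% in WT against CDM. The list of 23 other tested interferon-stimulated genes moved both ways too. In PAR against TKO 2 were higher, LAMP3 (2.24, adjusted p = 4.42e-07) and NMI (1.06), and 6 lower, with SAMD9L (-1.0) and the peptide transporter TAP1 (-0.78) furthest. In WT against TKO 5 were higher and 5 lower: LAMP3 (2.75, adjusted p = 2.91e-08) and NMI (1.46), and EPSTI1 (-1.11) and TRIM21 (-0.80). In WT against CDM 3 were higher and 5 lower: LAMP3 (2.47, adjusted p = 3.18e-07) and APOL6 (1.44), and EPSTI1 (-1.29) and SP110 (-0.48). LAMP3, a lysosomal membrane protein, had a larger log2 difference than any gene of the set in these comparisons. It was dim in 3 of the 10 lines, with line means from 4.47 to 7.71. Its differences were not counted from the brightness limit.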

How the data were processed

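The study used Affymetrix GeneChip arrays, 3 cultures of each of 10 lines. The authors deposited log2 values normalized by RMA, per the design text of the series and, for RMA, the submitters' processing notes; its version and the chip files used are not stated there. RMA fits all arrays together and equalises their distributions, which can narrow differences. Probe sets were named through GEO's platform annotation: of 54613, 41091 had 1 symbol, 1801 several and 11721 were not listed. The brightest single-symbol probe set stood for a gene.

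The log2 values were fitted with limma 3.58.1 in R 4.3.3 (lmFit, eBayes, 1 mean per line, 20 residual degrees of freedom), tested on simulated data, with Benjamini-Hochberg adjustment over 13137 genes. P-values measure the spread between cultures of 1 line. The genes and lists were chosen with earlier results of these data known. Genes named were the 8 of largest range, up to 4 calls each way per comparison, all dim genes, and up to 2 each way per pathway list; PARP9, IFITM2, PARP14 and the genes called under the block, without an array or near the threshold were added after their values were seen. The 2 comparisons of fragments with WT were likewise added.

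Replicate numbers were taken to pair lines where same-numbered arrays deviated together (every pair's correlation over 0.1): PAR, CDM and MMSET1 with TKO, WT+MMSET1 and both fragments with WT, and the fragments with each other. Arrays give no counts, so precision is limited by 3 arrays a line. Alternatives were array centring, no filter or a stricter one (log2 above 6), the mean of all probe sets, the compared lines alone with and without the block, and leaving out arrays. Promoters are RefSeq's, build GRCh38.p14. IRF7, IFIT2, IFITM2, MX2, OAS2, OASL, USP18 and TRIM22 were not in that table.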

Additional observations from a re-analysis of the deposited data

How the results depend on the processing

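Counts of called genes kept within 1.5 times in all planned settings that kept every array for PAR, WT and both fragments against TKO, WT against PAR, WT+MMSET1 against CDM+MMSET1 and the 4 comparisons with 0 calls. Exceptions were H762Y against TKO (1 call with no filter, 1 with the mean of probe sets, 0 with the lines alone, 0 with the replicate block), MMSET1 against TKO (0 with no filter, 0 with the mean, 3 alone, 5 blocked), CDM against TKO (7 alone, 9 blocked), WT against CDM (12 alone, 12 blocked) and H762Y against WT (2 alone). The added 526-1240 against WT gave 0 with the stricter filter, 0 alone and 6 blocked, and 526-1365 against WT 0, 0 and 2. The cause was not tested. The block changed no other count by over 1.5 times; for WT against CDM and H762Y against TKO the numbers do not pair the arrays. With H762Y replicate 1 left out of the fit, CDM against TKO gave 2 calls, WT against CDM 11, MMSET1 against TKO 4, H762Y against TKO 4, H762Y against WT 10, and each fragment against WT 2.

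Leaving out each compared array in turn, or H762Y replicate 1 from the shared fit, gave 6 to 9 calls in PAR against TKO, 5 to 11 in WT against TKO, 5 to 8 in WT against PAR, 0 to 3 in CDM against TKO, 4 to 11 in WT against CDM, 4 to 9 in WT+MMSET1 against CDM+MMSET1, 0 to 4 in H762Y against TKO, 2 to 10 in H762Y against WT, 4 to 8 in 526-1240 against TKO, 4 to 10 in 526-1365 against TKO, 0 to 4 in MMSET1 against TKO, 1 to 2 in 526-1240 against WT and 0 to 2 in 526-1365 against WT. Of the 62 single-gene calls, 2 were lost with array centring, 10 with no filter, 0 of 52 with the stricter filter, 5 of 61 with the mean of probe sets (IFIT5 and PARP14 among them), 14 with the lines alone and 10 blocked. No gene called in a comparison changed sign there under any setting tried. Dim probe sets bound what could be seen in the 12 dim genes.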
